A study of Mus musculus with 6 samples.

Results

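Bone morphogenetic protein (BMP) signals are received and answered by a small set of genes, of which 10 were followed here in the growth plate: the type I receptors *Bmpr1a*, *Bmpr1b* and *Acvr1*, the type II receptor *Bmpr2*, the inhibitory Smads *Smad6* and *Smad7*, and *Id1*, *Id2*, *Id3* and *Id4*. They were chosen by name, and all 10 were found among the 23159 genes of the count table. All 10 were also among the 13728 genes with enough reads to be tested. RNA was compared between label-retaining chondrocytes (LRCs), the slow-cycling cells of the growth plate, and non-LRCs, the cells that had diluted their label, with *n*=3 libraries per group. Each of 3 experiments gave 1 library of each group from the same littermates, whose cells were pooled.

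Both groups came from Col2-Q mice at P49, homozygous for Col2a1-tTA (inserted near *Peli2*), TRE-H2B-GFP (at *Col1a1*), Col2a1-creER and R26R-tdTomato. All mice received doxycycline from P21 to P49, which stops production of the nuclear H2B-GFP label, and tamoxifen at P46 and P47, which turns on tdTomato. LRCs were the H2B-GFP(high) tdTomato+ cells (about 10000 per library) and non-LRCs the H2B-GFP(mid-low) tdTomato+ cells (about 50000 per library), both from the CD45-negative fraction of growth plates of the femur and tibia. The tTA that drives the label and the creER that turns on tdTomato are both under *Col2a1* promoters. The label also appears at a low level in some osteoblasts and osteocytes that lack the tTA, and the tdTomato gate was used in both groups. Wild-type cells and cells from mice without the transgenes were not part of the comparison.

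BMP ligands bind a complex of type I and type II serine/threonine kinase receptors. The type II receptor activates the type I receptor, which phosphorylates Smad1, Smad5 and Smad9, and these enter the nucleus with Smad4. *Id1*, *Id2* and *Id3* are classical direct targets, and *Smad6* and *Smad7* are induced as feedback inhibitors. Id proteins have a helix-loop-helix domain without a DNA-binding region, and they block basic helix-loop-helix (bHLH) transcription factors by pairing with them. In the growth plate, BMP receptors are needed for chondrocyte proliferation and maturation.

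The Id genes and the type I receptors are families of related sequence, so the coding stretches most alike within each family are shown. These are the most alike 60-base windows of the coding sequences (GRCm38, GENCODE vM21), and capitals mark bases identical in every family member shown. The 4 Id windows code for part of the helix-loop-helix domain and share 42 of 60 bases.
Id1: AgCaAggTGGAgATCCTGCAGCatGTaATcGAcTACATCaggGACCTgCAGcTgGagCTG
Id2: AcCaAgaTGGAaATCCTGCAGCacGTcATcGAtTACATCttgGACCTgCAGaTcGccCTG
Id3: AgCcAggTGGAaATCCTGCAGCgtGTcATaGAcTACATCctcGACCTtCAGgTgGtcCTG
Id4: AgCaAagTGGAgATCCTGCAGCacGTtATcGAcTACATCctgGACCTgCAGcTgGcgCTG

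The *Id1* window lies on the + strand at chr2:152736587-152736646, in exon 1 of 2. That of *Id2* is on the − strand at chr12:25095774-25095833, in exon 2 of 4. That of *Id3* is on the + strand at chr4:136144071-136144130, in exon 1 of 3, and that of *Id4* is on the + strand at chr13:48261762-48261821, in exon 1 of 3. *Id1* and *Id4* were the closest pair here, with 54 of 60 bases identical, and *Id2* and *Id3* the farthest, with 47. In the type I receptors, the window codes for the catalytic loop of the kinase domain and 47 of 60 bases are shared.
Bmpr1a: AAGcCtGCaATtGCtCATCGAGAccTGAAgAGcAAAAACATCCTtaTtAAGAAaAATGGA
Bmpr1b: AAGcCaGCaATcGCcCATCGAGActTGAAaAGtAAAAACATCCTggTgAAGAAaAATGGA
Acvr1: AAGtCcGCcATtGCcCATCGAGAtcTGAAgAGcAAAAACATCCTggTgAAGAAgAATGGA

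These windows are on the − strand, at chr14:34422604-34422663 in exon 10 of 13 (*Bmpr1a*), chr3:141856393-141856452 in exon 8 of 11 (*Bmpr1b*) and chr2:58462903-58462962 in exon 10 of 13 (*Acvr1*). The closest 50-base stretches of any pair still differed at 5 to 10 bases among the Id genes, at 5 or 6 among the type I receptors and at 9 between *Smad6* and *Smad7*. No 50-base word was shared within a family, so a read without errors could be assigned to its gene. Words shared with other annotated genes were found for *Bmpr1a* (241 of 5907, with the antisense gene Gm17110), *Id4* (79 of 3800, with A330033J07Rik and Gm49291 on the other strand) and *Id2* (8 of 1920, with Gm6175). Gm17110, A330033J07Rik and Gm49291 were not in the count table under these names, and Gm6175 was not looked up there. Whether counting used strand is not given in the sources used here.

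None of the 10 genes differed between LRCs and non-LRCs after adjustment over all genes (edgeR quasi-likelihood test with the experiment as a block, Benjamini-Hochberg). In the whole table, 1.28% of genes passed this test, 0.903% with a higher and 0.379% with a lower level in LRCs. At an unadjusted p below 0.05, 3 of the 10 stood out (*Acvr1* and *Id2* higher in LRCs, *Smad7* lower), where 18.4% of all genes did, 8.89% higher and 9.53% lower. DESeq2 with the same block called 2 of them, *Acvr1* and *Id2*, both higher, in a table in which it called 12.3% of genes, 6.16% as higher. Limma-voom called *Id2* as higher, in a table in which it called 9.91% of genes, 5.22% as higher. No fitted change reached 2-fold in size, which 20.5% of all genes did. The median log2 fold change (LRC over non-LRC) of the 10 was 0.26, beside -0.10 over all genes tested, and the median size of the change, whatever its sign, was 0.49 beside 0.45.

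**Figure D1:**
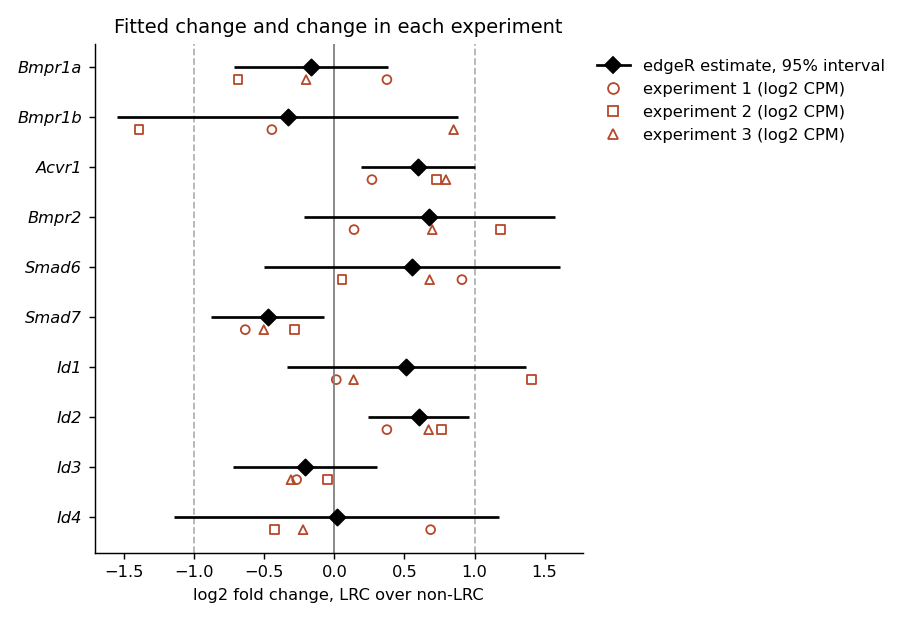
Log2 fold change of each gene, LRC over non-LRC (x axis). Diamonds and lines give the edgeR estimate with its 95% interval, open symbols give the change within each of the 3 experiments on the log2 CPM scale, and dashed lines mark a 2-fold change. The intervals of *Acvr1*, *Id2* and *Smad7* leave out 0, and the widest are those of *Bmpr1b*, *Id4*, *Smad6*, *Bmpr2* and *Id1*.

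In log2 CPM, 7 of the 10 genes had the LRC library on the same side of its own non-LRC library in all 3 experiments. Of all genes, 46.5% did. *Acvr1*, *Bmpr2*, *Smad6*, *Id1* and *Id2* were the 5 that lay higher in LRCs (20.4% of all genes did), and *Smad7* and *Id3* the 2 that lay lower (26.1%). For every one of the 10 genes, however, the values of the groups overlapped when the experiments were set aside, while 18.7% of all genes had no overlap, 8.41% with LRCs above.

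The type I receptors are given first, in CPM, the counts of a gene per 1000000 reads after TMM scaling of the libraries. *Acvr1*, which codes for the receptor ALK2, was at 115, 117 and 90.6 CPM in LRCs of experiments 1, 2 and 3 and at 95.6, 70.8 and 52.2 CPM in non-LRCs (108±14.8 and 72.9±21.8, mean ± s.d., *n*=3). Each LRC library exceeded its partner, but the non-LRC library of experiment 1 was above the LRC library of experiment 3. The fitted log2 fold change was 0.60 (SE 0.17, 95% interval 0.19 to 1.01, or 1.14 to 2.01-fold), with an unadjusted p of 0.0119 and an adjusted p of 0.144 in edgeR. DESeq2 with the block gave an adjusted p of 0.0252.

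*Bmpr1a*, which codes for ALK3, was at 131.8, 53.3 and 100.7 CPM in LRCs and at 101.7, 85.8 and 115.9 CPM in non-LRCs. It was higher in LRCs in experiment 1 and lower in experiments 2 and 3. The log2 fold change was -0.17 (SE 0.22, 95% interval -0.72 to 0.38), and the edgeR adjusted p was 0.734. Without experiment 2 the sign turned, to 0.088. The interval, 0.608 to 1.30-fold, leaves out a 2-fold difference in either direction.

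*Bmpr1b*, which codes for ALK6, was the least abundant type I receptor, at 11.5, 4.73 and 7.35 CPM in LRCs and 15.6, 12.5 and 4.06 CPM in non-LRCs. Experiments 1 and 2 showed less in LRCs and experiment 3 more. Its log2 fold change of -0.33 had an SE of 0.50 and an interval of -1.55 to 0.89 (edgeR adjusted p of 0.763), which takes in a level in LRCs of less than 0.5 times that in non-LRCs. It also turned without experiment 2, to 0.18.

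*Bmpr2*, the type II receptor that is selective for BMP ligands, was at 6.36, 21.9 and 3.84 CPM in LRCs and 5.77, 9.61 and 2.35 CPM in non-LRCs. Each library of experiment 2 was the highest of its group, and each LRC library exceeded its partner. The log2 fold change was 0.68 (SE 0.37, interval -0.22 to 1.57), with an edgeR adjusted p of 0.389. The *Bmpr2* transcript is long, with 12899 bases, and its 117 to 743 counts per library were among the lowest of the 10 genes.

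**Figure D2:**
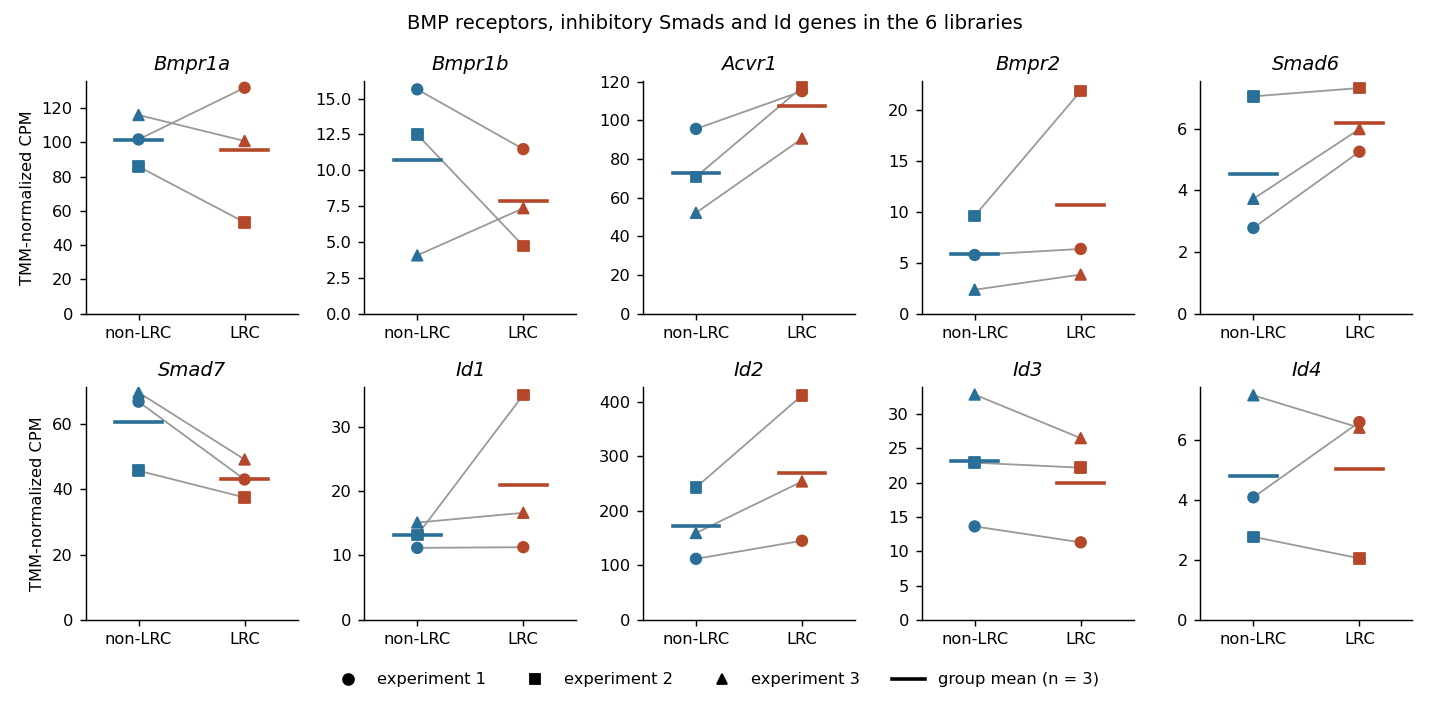
TMM-normalized CPM (y axis, from 0) of the 10 genes in non-LRC (left) and LRC libraries (right) of each panel. Symbols mark the 3 experiments, lines join the libraries of 1 experiment, and bars are group means (*n*=3). All 3 lines run up toward LRCs for *Acvr1*, *Bmpr2*, *Smad6*, *Id1* and *Id2* and down for *Smad7* and *Id3*. Of the genes whose lines all run up, experiment 2 has the steepest line for each but *Smad6*.

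The inhibitory Smads lay in opposite directions. *Smad7*, which blocks receptors of both BMP and TGF-β, was at 43.0, 37.5 and 49.2 CPM in LRCs and 66.9, 45.7 and 69.7 CPM in non-LRCs. Each LRC library was lower than its partner, and the groups overlapped through the non-LRC library of experiment 2. The log2 fold change was -0.48 (SE 0.17, interval -0.88 to -0.07), with an unadjusted p of 0.0279 and an adjusted p of 0.209 in edgeR.

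*Smad6*, which acts mainly on BMP receptors and Smad1, was at 5.25, 7.31 and 5.98 CPM in LRCs and 2.78, 7.04 and 3.72 CPM in non-LRCs. LRCs had more in each experiment, with differences in log2 CPM of 0.91 and 0.68 in experiments 1 and 3 and of 0.05 in experiment 2. A log2 fold change of 0.55 was fitted (SE 0.43, interval -0.50 to 1.61, edgeR adjusted p of 0.553).

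Of the Id genes, *Id2* had the most reads. It was at 145, 411 and 253 CPM in LRCs and at 112, 242 and 159 CPM in non-LRCs (270±134 and 171±66.2). Each LRC library exceeded its partner, by 0.37, 0.76 and 0.67 on the log2 scale, and the experiments kept one order in both groups, with experiment 2 highest and experiment 1 lowest. The log2 fold change was 0.60 (SE 0.15, interval 0.24 to 0.96, or 1.18 to 1.95-fold), with an unadjusted p of 0.00638 and an adjusted p of 0.114 in edgeR. The adjusted p was 0.00482 in DESeq2 and 0.0264 in limma-voom, both with the block.

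*Id1* was at 11.3, 34.9 and 16.6 CPM in LRCs and 11.2, 13.1 and 15.1 CPM in non-LRCs. The LRC library of experiment 2 was the outlying value, and the other LRC libraries lay within 0.14 of their partners on the log2 scale. The log2 fold change of 0.51 (SE 0.35, interval -0.34 to 1.36, edgeR adjusted p of 0.491) was 0.08 without experiment 2.

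*Id3* was at 11.3, 22.2 and 26.5 CPM in LRCs and 13.6, 22.9 and 32.8 CPM in non-LRCs, slightly lower in LRCs in each experiment in CPM. In experiment 2 the difference in log2 CPM was -0.05, and the order was reversed in levels taken without the TMM scaling, as TPM (below). The direction of *Id3* in experiment 2 thus depended on the scaling. A log2 fold change of -0.21 was fitted (SE 0.21, interval -0.72 to 0.31, edgeR adjusted p of 0.647). *Id4* was the scarcest, at 6.61, 2.06 and 6.42 CPM in LRCs and 4.09, 2.78 and 7.51 CPM in non-LRCs. It was higher in LRCs in experiment 1 and lower in the others, and its log2 fold change of 0.02 had an interval of -1.15 to 1.18 (SE 0.47, edgeR adjusted p of 0.990). The LRC library of experiment 2 held 43 *Id4* counts, the fewest of any of the 10 genes in any library. In bulk RNA, fewer cells with a transcript and less of it per cell cannot be told apart for any of these genes.

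Levels between genes were compared per transcript length, as TPM, the share of a gene among 1000000 transcripts once counts are divided by exon length. *Id2* stood above all others in both groups, at 442±203 TPM in LRCs and 270±88.7 TPM in non-LRCs (mean ± s.d., *n*=3). In LRCs it was followed by *Acvr1* (89.8±10.4), *Id1* (71.9±39.6), *Bmpr1a* (61.2±26.7), *Id3* (45.1±18.0) and *Smad7* (38.8±6.64), whose neighbours in this order overlapped. A clear step separated these from *Smad6* (7.76±1.04), *Bmpr1b* (5.36±2.43), *Id4* (5.35±2.85) and *Bmpr2* (2.34±2.05), which again overlapped from one to the next.

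In non-LRCs the order began with *Id2*, *Bmpr1a* (62.4±13.4), *Acvr1* (58.6±17.5), *Smad7* (52.9±14.5), *Id3* (50.6±23.2) and *Id1* (44.2±8.42). *Bmpr1b* (6.91±3.81), *Smad6* (5.38±2.30) and *Id4* (4.95±2.81) followed after a gap, and *Bmpr2* (1.24±0.693) was below each of them in TPM. The same 6 genes thus made up the upper class in both groups, and *Bmpr2* was last in both. In experiment 2, *Id3* was at 47.7 TPM in LRCs and 46.1 TPM in non-LRCs, the reverse of its order in CPM. TPM left out the TMM factors, which were 1.10 for the LRC and 1.02 for the non-LRC library of experiment 2. Among type I receptors, *Acvr1* exceeded *Bmpr1a* in TPM in all 3 LRC libraries (97.8, 93.5 and 78.1 TPM beside 85.2, 32.4 and 66.0 TPM). In non-LRCs it did so in experiments 1 and 2 (78.2 and 52.9 TPM beside 63.2 and 48.7 TPM), while experiment 3 had 44.6 TPM of *Acvr1* and 75.4 TPM of *Bmpr1a*.

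**Figure D3:**
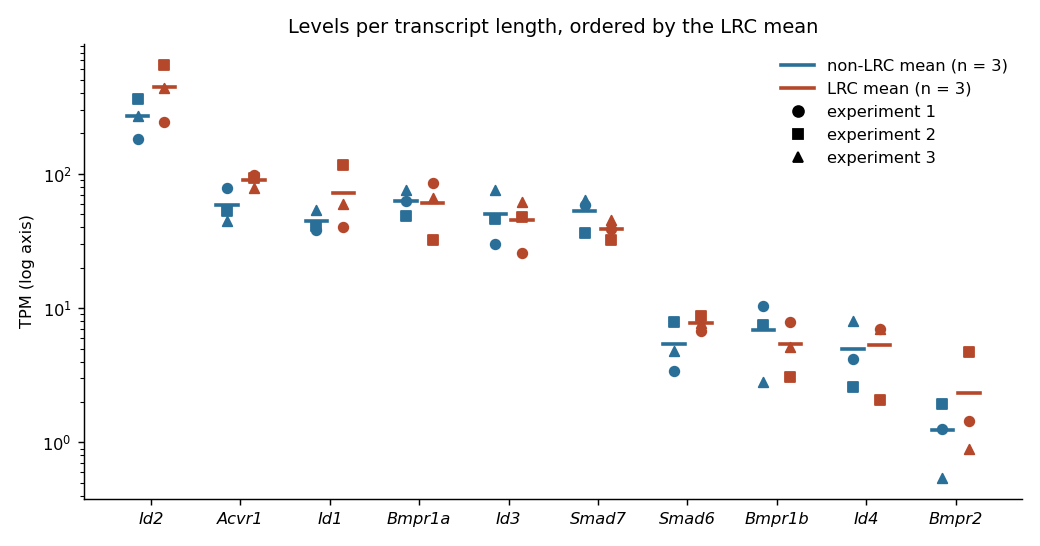
TPM (log axis) of the 10 genes, ordered by the LRC mean, in non-LRC (blue) and LRC libraries (red). Symbols mark the experiments and bars the group means (*n*=3). *Id2* lies above the rest, 5 genes lie between 25.9 and 116 TPM, and *Smad6*, *Bmpr1b*, *Id4* and *Bmpr2* lie lower.

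The balance between related genes was taken as a ratio of counts within a library, which is free of the scaling between libraries. The pairs were chosen after the values were seen, and the ratios are given without a test. The ratio of *Id2* to *Id3* was 12.8, 18.5 and 9.57 in LRCs and 8.20, 10.6 and 4.84 in non-LRCs. It was 1.56, 1.75 and 1.98 times higher in LRCs in experiments 1, 2 and 3. The ratio of *Smad6* to *Smad7* was 0.122, 0.195 and 0.122 in LRCs and 0.0415, 0.154 and 0.0534 in non-LRCs. It was higher in LRCs in each experiment, by 2.94, 1.27 and 2.28 times, and *Smad7* had more counts than *Smad6* throughout. For both pairs, the common direction of the ratio follows from the directions of the single genes in CPM given above.

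The ratio of *Acvr1* to *Bmpr1a* was 0.874, 2.20 and 0.899 in LRCs and 0.941, 0.825 and 0.450 in non-LRCs. It was higher in LRCs in experiments 2 and 3, by 2.66 and 2.00 times, and 0.929 times the non-LRC ratio in experiment 1. *Id2* to *Id1* had no common direction, at 1.28, 0.638 and 1.45 times the non-LRC ratio.

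**Figure D4:**
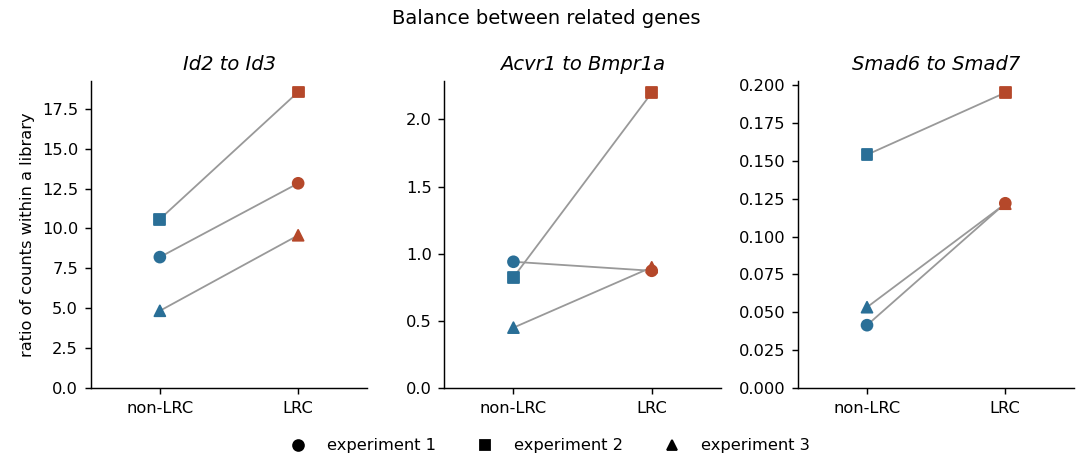
Ratio of counts (y axis, from 0) of *Id2* to *Id3*, *Acvr1* to *Bmpr1a* and *Smad6* to *Smad7* in non-LRC and LRC libraries, with lines joining the libraries of 1 experiment. The first and last ratio are higher in LRCs in each experiment, and that of *Acvr1* to *Bmpr1a* is higher in experiments 2 and 3.

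Of 72 other BMP pathway genes in the table, 63 could be tested, and 4 passed the test (edgeR with the block). All 4 were higher in LRCs and were ligands or antagonists. Over all genes tested, 1.28% passed, 0.903% as higher. *Bmp3*, a ligand that restrains other BMPs, was at 23.5, 23.4 and 33.3 CPM in LRCs and 3.17, 3.27 and 3.46 CPM in non-LRCs, a log2 fold change of 3.00 (adjusted p of 0.0176 in edgeR). *Nbl1*, a secreted BMP antagonist of the DAN family, was at 170, 152 and 109 CPM beside 37.5, 30.4 and 24.3 CPM (log2 fold change 2.22, adjusted p of 0.0151 in edgeR). *Gdf5*, a ligand of joint formation that prefers *Bmpr1b*, was at 43.9, 48.4 and 30.5 CPM beside 9.27, 16.9 and 8.55 CPM (log2 fold change 1.87, adjusted p of 0.0354 in edgeR). *Bmp2*, an osteogenic and chondrogenic ligand, was at 124, 114 and 114 CPM beside 44.1, 53.9 and 38.3 CPM (log2 fold change 1.39, adjusted p of 0.0330 in edgeR). None of these 4 genes overlapped between groups, nor did 18.7% of all genes, 8.41% with LRCs above. The 4 had been picked by their p in these same libraries. Without experiment 1, *Nbl1* was the 1 gene still called, and without the block none was. Of the 19 ligands and antagonists tested, 11 had a higher and 8 a lower fitted level in LRCs. At an unadjusted p below 0.05 in edgeR, 6 were higher and 4 lower. Lower were the antagonists *Chrdl1* (log2 fold change -1.44, adjusted p of 0.0540 in edgeR), *Nog* (-2.80) and *Bmper* (-1.29), and the ligand *Gdf10* (-1.02). *Nog* had 1 count in the LRC library of experiment 2. Higher were the 4 called, *Bmp7* (0.83) and *Fstl1* (0.50). DESeq2 called 6 higher and 3 lower, and limma-voom 5 and 2. Over all genes, 8.89% were higher and 9.53% lower at an unadjusted p below 0.05 in edgeR. DESeq2 called 12.3% of all genes and limma-voom 9.91%. These shares also stand beside the counts of each list below.

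The genes that stand between ligand and Id response did not pass the test. Of the 18 other Smads, partners and Smad regulators tested, 0 were called by edgeR, with 6 higher and 1 lower at an unadjusted p below 0.05, and DESeq2 and limma-voom each called 4, all higher. The smallest p belonged to *Nedd4l*, a ubiquitin ligase that acts on activated Smads, at 368, 187 and 273 CPM in LRCs beside 182, 119 and 121 CPM (log2 fold change 0.95, SE 0.16, adjusted p of 0.0595 in edgeR). Of the 7 other receptors and co-receptors tested, 0 were called by edgeR, DESeq2 or limma-voom and 1 was higher at an unadjusted p below 0.05. This was *Rgmb*, a BMP co-receptor, with a log2 fold change of 0.74 (SE 0.26, adjusted p of 0.222 in edgeR).

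The bHLH factors that Id proteins act on, and related bHLH genes, were 9, of which edgeR called 0. *Tcf4*, an E protein and partner of Id proteins, had the smallest p, at 207, 269 and 212 CPM in LRCs beside 125, 151 and 111 CPM (log2 fold change 0.83, SE 0.14, adjusted p of 0.0540 in edgeR). It was the 1 gene of this list at an unadjusted p below 0.05, and both DESeq2 and limma-voom called it.

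The other genes that respond to BMP lay, in the median, lower in LRCs. Of 10 tested, edgeR called 0, with 2 higher and 4 lower at an unadjusted p below 0.05. DESeq2 called 1 higher and 4 lower, and limma-voom 1 and 2. *Col10a1*, the collagen of hypertrophic chondrocytes, had the smallest p, at 1.93, 0.143 and 76.0 CPM in LRCs beside 12.2, 15.7 and 264 CPM (log2 fold change -2.95, SE 0.69, adjusted p of 0.101 in edgeR). Each LRC library was below its partner, and experiment 3 had by far the highest level in both groups. The median log2 fold change of the list was -0.84, with 3 genes higher and 7 lower, and that of the 4 Id genes was 0.26. Higher were *Hey1* (1.33), *Msx1* (1.18) and *Runx2* (0.50). *Ihh* (-5.35), *Col10a1*, *Sp7* (-1.25) and *Dlx5* (-1.16), all lower, are named by the study as markers of proliferating and pre-hypertrophic chondrocytes. The part of cell stage in the median of the list was not tested.

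**Figure D5:**
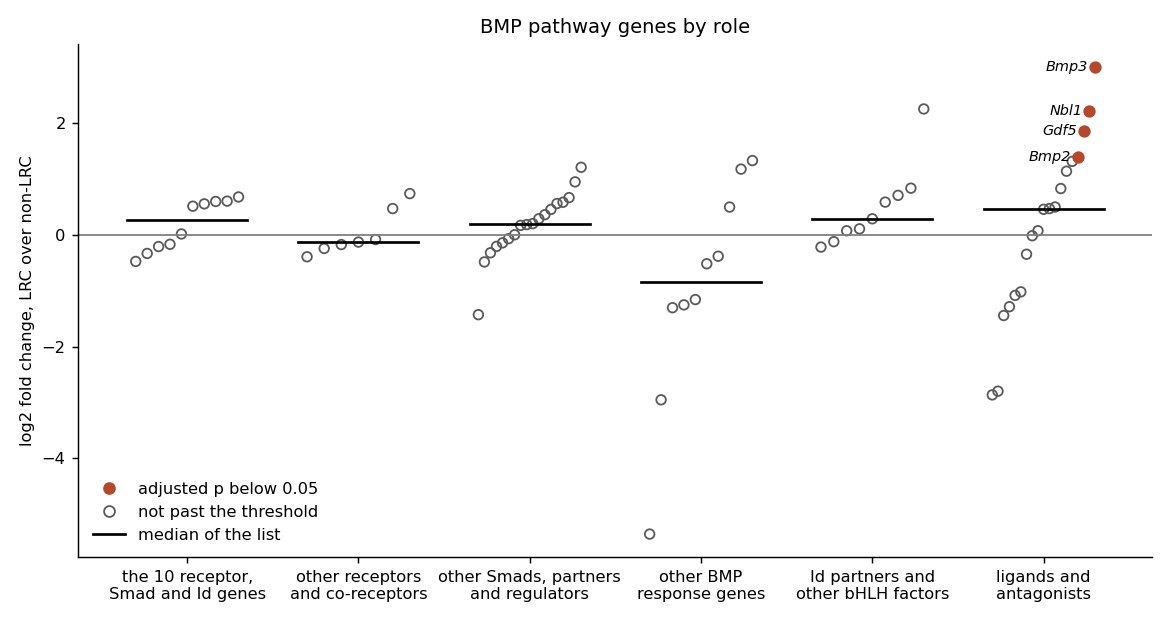
Fitted log2 fold change, LRC over non-LRC (y axis), of the 10 genes and of the 63 other BMP pathway genes tested, by role. Filled points have an adjusted p below 0.05 in edgeR, open points do not, and bars are list medians. The 4 filled points, *Bmp2*, *Gdf5*, *Nbl1* and *Bmp3*, are ligands and antagonists, and the 10 genes lie between -0.48 and 0.68.

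The libraries held 18943789 to 129559872 counts, so that 1 count was worth 0.00856 to 0.0478 CPM, and the 10 genes took 0.0402 to 0.0787% of all counts. The LRC library of experiment 2 was the shallowest, had 1731 tested genes at 0 and was the farthest from the median of the 6 libraries for 5 of the 10 genes (*Bmpr1a*, *Bmpr2*, *Id1*, *Id2* and *Id4*), as it was for 45% of all genes. Summed over 10 chondrocyte markers, it also had the lowest level, 80664 CPM, in a range of 80664 to 223641 CPM in LRCs and 132829 to 230043 CPM in non-LRCs, with *Col2a1* making up most of the sum, so transcripts of the labelled cell type were abundant in each library. Of these 10 markers 7 had a lower fitted level in LRCs, 3 of them at an unadjusted p below 0.05 (*Matn3*, *Hapln1* and *Comp*), where edgeR called 0 and DESeq2 and limma-voom each called 2 lower. Endothelial cells are rich in *Id1*, *Id3* and *Smad6*. Their 10 markers summed to 1.70 to 8.51 CPM in LRCs and 2.53 to 3.42 CPM in non-LRCs. Of these, *Cdh5*, *Kdr* and *Emcn* were at 0 counts in all 6 libraries. *Pecam1* (at most 0.681 CPM) and *Vwf* (at most 1.51 CPM) were each at 0 in 1 library, and *Tie1* (at most 0.497 CPM) in 3. The highest sum, 8.51 CPM, was in the LRC library of experiment 2, with *Egfl7* at 4.88 CPM and *Cldn5* at 3.06 CPM, and that library also held the outlying *Id1* value. No gene of the 3 tested in this list was called by edgeR, DESeq2 or limma-voom, or was at an unadjusted p below 0.05 in edgeR.

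Some of the other marker lists moved with the groups. Of 8 superficial articular and synovial markers, edgeR called 4 (*Prg4*, *Cilp*, *Clu* and *Thbs4*), all higher in LRCs. The study also named *Prg4* as its top LRC gene. By in situ hybridization it saw *Prg4* RNA in the resting zone, where it places LRCs, far more faintly than at the articular surface. It counted nearly all tdTomato+ cells freed by the digestion as growth plate cells. The sum over the list was 1453 to 3095 CPM in LRCs and 146 to 207 CPM in non-LRCs. A lower fitted level in LRCs was found for 2, *Vcam1* (log2 fold change -1.02) and *Cd55* (-0.15). *Htra4* was at 0 CPM in the LRC library of experiment 2 and at 46.5 and 50.2 CPM in those of experiments 1 and 3. Of 14 immediate early and heat shock genes, edgeR called 2 higher, *Hspa1a* (adjusted p of 0.0275) and *Nr4a1* (adjusted p of 0.0489), with sums of 3533 to 5107 and 2437 to 4183 CPM. The 8 osteoblast markers were divided, with sums of 1515 to 3371 and 1753 to 2448 CPM. EdgeR called *Col1a1*, which was higher (adjusted p of 0.0151), while 5 of the 8 had a lower fitted level in LRCs, 3 of them at an unadjusted p below 0.05 (*Bglap*, *Bglap2* and *Alpl*). DESeq2 and limma-voom each called 1 higher and 3 lower. EdgeR called none of 8 skeletal muscle markers (12.3 to 23.4 and 23.6 to 43.0 CPM, 1 of the 4 tested lower at an unadjusted p below 0.05) or 10 leukocyte and erythroid markers (12.3 to 27.8 and 8.17 to 14.9 CPM, 0 of the 6 tested at an unadjusted p below 0.05). DESeq2 called none of either list, and limma-voom called 1 muscle marker lower. The part of these cells or states in the values of the Id, Smad and receptor genes was not tested.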

How the data were processed

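RNA from 6 libraries was amplified and sequenced by the authors with single-end reads of 50 bases, aligned to mm10 (GRCm38) with TopHat2 and Bowtie2 and counted per gene with HTSeq (tools per the labels). The deposited raw counts were used for all tests, and all their columns were mapped to a sample. Deposited size-factor-normalized and rlog tables were not used here. The gene annotation of the counts is not given in the sources used here. The 10 genes and all lists were chosen with earlier results of these data known.

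Tests were run in edgeR 4.0.16 under R 4.3.3 (filterByExpr with a minimum count of 10 and total of 15, TMM, quasi-likelihood test, Benjamini-Hochberg over 13728 genes), with the experiment as a block as in the methods of the study. Alternatives included DESeq2 1.42.0 and limma-voom (limma 3.58.1), no block, other scaling and filters, and each experiment left out. Changes within an experiment used log2 CPM with a prior count of 2. TPM used exon union lengths of GENCODE vM21 and no TMM factors. Of the symbols, 20778 matched directly, 1944 by a RefSeq synonym and 437 not at all. Named genes were the 10, in each other BMP pathway list those called and the one with the smallest p, and the 2 nearest profiles of each Id gene. Further genes named from the lists of ligands and antagonists and of BMP response genes, and from the marker lists, were chosen after their values were seen. The experiment numbers paired the libraries by origin from the same littermates, and deviations from group means correlated between paired libraries (Pearson r of 0.197, 0.288 and 0.336, across genes). No library was a copy of another (chi-square per gene of at least 162).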

Additional observations from a re-analysis of the deposited data

How the results depend on the processing

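Of 90 log2 fold changes of the 10 genes recomputed under the alternatives, 84 kept their direction and their side of the threshold. The sign turned for *Bmpr1a* (0.088) and *Bmpr1b* (0.18) without replicate 2 and for *Id4* (-0.33) without replicate 1, in ranges over the experiments left out of -0.45 to 0.088, -0.90 to 0.18 and -0.33 to 0.24, and the adjusted p passed 0.05 for *Acvr1* in DESeq2 and for *Id2* in DESeq2 and limma-voom. The count of the 10 genes called was 0 in edgeR with the block, 2 in DESeq2, 1 in limma-voom, 0 without the replicate block and 0 whichever experiment was left out. For the other BMP pathway genes, 4 were called with the block and 0 without it, 19 in DESeq2, 15 in limma-voom, 10 with at least 10 counts in every library, 7 without a filter and 1 to 11 when an experiment was left out, with 1 (*Nbl1*) without experiment 1, 11 without experiment 2 and 6 without experiment 3. Over all genes, 176 were called, 1 without the block, 1692 in DESeq2, 1361 in limma-voom, 751 with at least 10 counts in every library, 256 without a filter, and 35, 782 and 223 without experiments 1, 2 and 3. With the longest transcript in place of the exon union, the TPM moved by more than 1 s.d. for *Smad6* and *Smad7* in LRCs (6.26 and 30.6) and *Id1* in non-LRCs (33.1). The cause of these shifts was not tested. With 3 pairs, the intervals of *Acvr1*, *Bmpr1b*, *Bmpr2*, *Smad6*, *Id1* and *Id4* include a 2-fold change, and the shallowest library held 43 to 8605 counts of each of the 10 genes.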

Other observations

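The profiles of the Id genes over the 6 libraries were compared with those of other genes of at least 10 mean CPM, by the root-mean-square distance of log2 CPM after centring each gene on its mean. Nearest to *Id2* were *Bpifb1* (0.152) and *Anxa1* (0.162), to *Id1* *Kctd2* (0.119) and *Tmcc3* (0.157), to *Id3* 4930579G24Rik (0.102) and *Tpx2* (0.120), and to *Id4* E430025E21Rik (0.164) and *Usp5* (0.170). Within a distance of 0.5 of *Id1*, *Id2*, *Id3* and *Id4* lay 1303, 856, 1371 and 1087 of about 7823 candidates, so that 6 libraries set few genes apart. Among the 10 genes, the closest profiles were those of *Id1* and *Id2* (0.306), which rested in part on high values of both in the LRC library of experiment 2.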
